A study of Homo sapiens with 12 samples.

Results

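Oxidative phosphorylation is the process by which mitochondria turn nutrients into ATP. Complexes I and II pass electrons from NADH and succinate to ubiquinone, complex III passes them to cytochrome c and complex IV to oxygen, and complex V (ATP synthase) uses the proton gradient so formed to make ATP. Mitochondrial DNA encodes a few of the subunits, and the nucleus encodes the others together with the factors that assemble them. In breast cancer cells the balance between this process and glycolysis is much studied, and estrogen receptors are known to act on nuclear genes of mitochondrial function.

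The nuclear genes of the 5 complexes were followed by RNA-seq in MDA-MB-231-ERβ cells. Members were chosen by symbol, namely those that begin with NDUF, UQCR or ATP5, SDHA to SDHD, and those that begin with COX and a number from 4 to 8. This gave 92 of 12451 entries, of which (NDUFA4 being placed with complex IV, where the protein resides) 45 belonged to complex I, 4 to complex II, 9 to complex III, 15 to complex IV and 19 to complex V. The genes tested were those with an RPKM (reads per kilobase of exon, scaled to library size) of at least 1 in at least 3 libraries, which left 11303 genes and 91 of the members. The member that did not pass was COX7A1, an isoform of muscle and heart, at 0.175 to 0.29 CPM (counts scaled to library size and composition) in vehicle libraries and at 0 to 0.684 CPM in the others. The RPKM values printed below are scaled in the same way as CPM, whereas the filter scaled by library size alone. NDUFA4L2 and COX4I2 were not analysed here.

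MDA-MB-231-ERβ is a TNBC cell line engineered to produce full length ERβ from a transgene that dox switches on, and all groups carry it. In each group 3 dishes were analysed. They had received ethanol vehicle, 20 ng/ml TNFα for the final 3 h, 1 nM E2 for 5 days, or both agents (E2+TNFα). The study's methods put all cells in dox, whereas the labels name dox for every group but E2+TNFα. Because all results come from 1 engineered line with an ERβ level set by the transgene, they describe that line only. The libraries held 35.8, 37.5 and 39.9 M (1e6) assigned reads for vehicle, 30.5, 30.2 and 19.5 M for TNFα, 15.8, 7.65 and 11.9 M for E2, and 16.8, 27.1 and 36.7 M for E2+TNFα.

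The labelled cell line and treatments were checked against marker genes. Of the genes high in this mesenchymal line, VIM was at 1549.9 ± 33.8 CPM (SD, n = 3) in vehicle libraries, AXL at 1199.6 ± 45.5, CD44 at 755.0 ± 32.4 and CAV1 at 169.6 ± 15. Of the epithelial genes, EPCAM was at 9.93 ± 0.935 CPM and CDH1 at 3.15 ± 0.525 CPM in vehicle libraries, and CDH1 was at 41 ± 11 CPM in E2 libraries. CD68, which leukocytes express strongly, was at 91.8 ± 3.31 CPM, and the muscle gene MB was at 0.254 ± 0.0574 CPM. ESR1, PGR, PTPRC, CD3E, PECAM1, VWF, ALB, MYH7, ACTN2 and CKM were not analysed here. NFKBIA, a direct target of NFκB, was at 68.8 to 73.1 CPM in vehicle and 356.1 to 377.9 CPM in TNFα libraries. GREB1, a classical estrogen target, was at 3.29 to 3.61 CPM in vehicle and 45 to 61.7 CPM in E2 libraries, and neither gene overlapped between those groups. TNF itself was at 0.259 to 0.363 CPM in vehicle and 34 to 38.7 CPM in TNFα libraries, and TFF1, another estrogen target, was at 0 to 0.0242 CPM in vehicle and 0.684 to 1.18 CPM in E2 libraries. ESR2, which encodes ERβ, was at 472.5 ± 14.9 CPM in vehicle, 254.9 ± 26.7 in TNFα, 306.4 ± 14.7 in E2 and 448.5 ± 53.2 in E2+TNFα libraries.

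The 3 vehicle libraries stood apart from the 9 others in the levels of the members. In a principal component analysis of the 91 tested members, the first component held 69.7% of the variance, with vehicle libraries at 7.28 to 8.19 and all others at -5.06 to -1.03. Spearman correlations of member levels ran from 0.678 to 0.792 when 1 of the pair was vehicle, from 0.9 to 0.993 between the other groups, and from 0.948 to 0.997 within a group. These correlations are across genes, which are not independent replicates. The study's methods describe a correction for batches, but neither they nor the labels say which libraries each batch held. A batch that held only the vehicle libraries and the vehicle condition thus cannot be told apart. The comparisons relative to vehicle all use the same 3 vehicle libraries and are given beside the comparisons of E2+TNFα with TNFα and with E2, which do not use them.

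**Figure D1:**
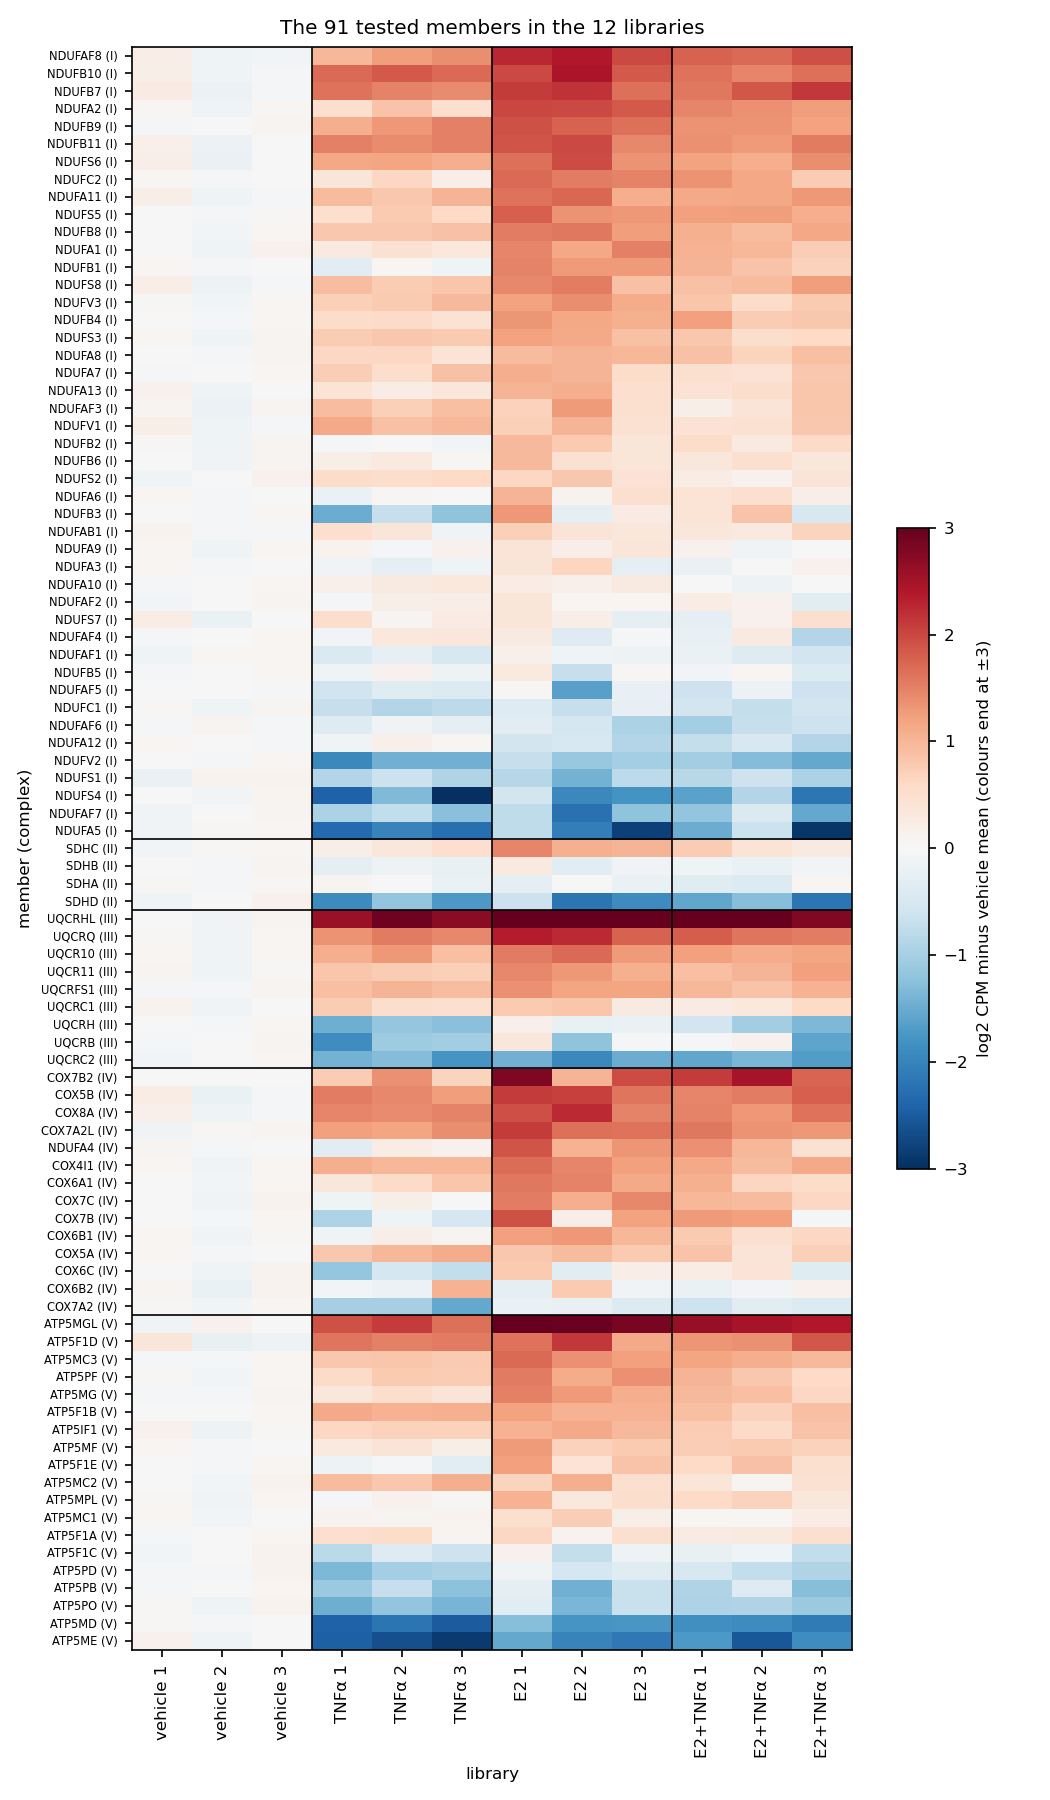
Each row is 1 of the 91 tested members, grouped by complex and sorted by the change with E2, and each column is 1 of the 12 libraries. Colour gives log2 CPM minus the mean of the vehicle libraries, with red for higher and blue for lower, and the E2 columns correspond to a median log2 fold change of 0.85.

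Levels were compared between members per length. In vehicle libraries COX8A, a small subunit of complex IV, was highest at a mean of 413.7 RPKM, ahead of ATP5F1B (349.8), the catalytic β subunit of ATP synthase, and of the complex IV subunits COX7C (302.3), COX6A1 (244.7), COX4I1 (217.8) and COX6B1 (189.1). COX8A was also first in TNFα (1129.7 RPKM), E2 (1557.8 RPKM) and E2+TNFα libraries (1151.3 RPKM). At the lower end were COX7A1 and members such as the isoform COX6B2 (1.55 RPKM in vehicle), the testis isoform COX7B2 (1.29 RPKM) and ATP5MGL (0.84 RPKM), an intronless relative of ATP5MG. The 92 members took 0.762 ± 0.0353% of assigned reads in vehicle (SD, n = 3), 0.959 ± 0.0311% in TNFα, 1.16 ± 0.162% in E2 and 1.01 ± 0.0613% in E2+TNFα libraries. Such shares are relative to the other reads of the same library and do not give amounts of RNA per cell. Every vehicle library (0.721% to 0.785%) was below every other library (0.932% to 1.35%). The share of complex IV was 0.153 ± 0.00964% in vehicle and 0.314 ± 0.049% in E2 libraries, and that of complex II was 0.0601 ± 0.00221% and 0.0502 ± 0.00789%.

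The first question was how E2, the ligand of ERβ, changed these genes. Relative to vehicle, 60 of the 91 tested members rose with E2, 16 fell and 15 were not called. A gene was said to rise or fall at an adjusted p (edgeR quasi-likelihood test, Benjamini-Hochberg over all 11303 genes) of at most 0.1. By the same rule 40.1% of all genes rose and 41.7% fell, so calls of either direction were frequent in this comparison. Their median log2 fold change was 0.85, and that of all genes was -0.02. Past the study's full thresholds, which also ask for a log2 fold change of 1.5 or more in size and a p under 0.05, 19 members were higher and 4 lower, and 9.87% and 20.6% of all genes were. The count of 16 falls was 3 in a fit with a factor of unwanted variation estimated from housekeeping genes (20.7% of all genes), and 8 when each library's trends with exon GC content and gene length were removed (23.8% of all genes). With the trends removed, 27 members were higher and 1 lower past the full thresholds, beside 1302 and 474 of the 11303 genes.

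Complex I, the entry point for electrons from NADH, had 29 members higher, 8 lower and 8 not called with E2, beside 40.1% of all genes higher and 41.7% lower. The rises were most frequent among accessory subunits, which surround the catalytic core (23 higher, 4 lower of 30). Of the 7 nuclear core subunits, 4 rose and 2 fell. Of the 8 assembly factors, 2 rose and 2 fell. With the trends removed, 34 members of complex I rose and 4 fell, beside 52.6% and 23.8% of all genes. In that fit 4 assembly factors rose and 1 fell. NDUFB10, an accessory subunit of the membrane arm (chromosome 16 of hg38, 1959516 to 1961975), was at 29.1, 23.7 and 25 CPM in vehicle and at 102.7, 144.3 and 94 CPM in E2 libraries. Every E2 library was above every vehicle library, with a log2 fold change of 2.13 (SE 0.156, adjusted p = 1.61e-08 by edgeR). The assembly factor NDUFAF8 went from 4.16 to 5.3 CPM to 19.4 to 26.3 CPM, a log2 fold change of 2.34 (SE 0.188). NDUFV1, the core subunit that binds NADH, rose by 0.75 (SE 0.151), with a sign that turned to -0.10 with the unwanted factor and no call with the trends removed (0.13).

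Several members of complex I moved the other way. NDUFA5, an accessory subunit of the peripheral arm, was at 12.1, 13.2 and 13.6 CPM in vehicle and at 7.39, 2.71 and 1.45 CPM in E2 libraries, so the groups did not overlap but the E2 libraries differed widely among themselves. Its log2 fold change was -1.69 (SE 0.538, adjusted p = 0.00965 by edgeR). Without the vehicle libraries, at 1.86 to 2.09 RPKM, NDUFA5 would not have passed the filter. NDUFAF7, an enzyme that assists assembly, fell by 1.37 on the log2 scale (SE 0.384). NDUFS1, the largest core subunit, fell by 1.00 on the log2 scale (SE 0.165). The signs for NDUFA5 and NDUFS1 turned positive with the GC and length trends removed (1.09 and 0.76), and that for NDUFAF7 did with the unwanted factor (1.66), while with the trends removed it was not called (-0.46).

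Complex II, succinate dehydrogenase, differed among its 4 subunits. The catalytic subunits, SDHA with its flavin and SDHB with its iron-sulfur clusters, were not called with E2, at log2 fold changes of -0.17 (SE 0.134) and -0.02 (SE 0.14). The membrane anchor SDHC (chromosome 1, 161314376 to 161364751) was at 89.9, 97.4 and 97.2 CPM in vehicle and at 262.9, 198.6 and 191.2 CPM in E2 libraries. Its groups were well apart, with a log2 fold change of 1.20 (SE 0.15, adjusted p = 3.20e-06 by edgeR). The other anchor, SDHD (chromosome 11, 112086824 to 112095801), was at 82.9, 92.8 and 99.4 CPM in vehicle and at 58, 19.8 and 24.5 CPM in E2 libraries. SDHD fell by 1.40 on the log2 scale (SE 0.327, adjusted p = 0.00109 by edgeR), and its sign turned to 1.04 with the unwanted factor. Removal of the GC and length trends left SDHC at 2.37 and SDHD at -0.32. Both anchors have intronless copies elsewhere in the genome with up to 99.07% identity for SDHC and 97.08% for SDHD. SDHA has spliced copies on chromosomes 3 and 5 at up to 94.97% identity, and the part of such copies in these values was not tested.

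In complex III, which carries electrons to cytochrome c, 6 of 9 members rose with E2 and 1 fell, beside 40.1% and 41.7% of all genes. With the trends removed 7 rose and 1 fell, beside 52.6% and 23.8% of all genes. UQCRQ, a small subunit next to cytochrome b, was at 67.2, 60.8 and 68.8 CPM in vehicle and at 338.1, 309.9 and 224.4 CPM in E2 libraries. The groups did not overlap (log2 fold change 2.15, SE 0.149, adjusted p = 9.78e-09 by edgeR). The Rieske iron-sulfur protein UQCRFS1 rose by 1.25 (SE 0.104) and the core protein UQCRC1 by 0.65 (SE 0.15). The second core protein UQCRC2 (chromosome 16, 21953288 to 21983347) was at 67, 71 and 74.6 CPM in vehicle and at 25.9, 18 and 25.1 CPM in E2 libraries. It was lower in every E2 library and fell by 1.61 on the log2 scale (SE 0.165, adjusted p = 4.20e-07 by edgeR). With the GC and length trends removed UQCRC1 was not called (0.08) and UQCRC2 still fell (-1.10). UQCRC2 has no copy by the rule used here.

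The largest change of complex III was that of UQCRHL, an intronless gene nearly identical to UQCRH, the hinge protein of the complex. Both coding sequences are shown because they share nearly all bases. UQCRH lies on the plus strand of chromosome 1 of hg38, with its coding sequence in 4 exons from 46303767 to 46316581. UQCRHL is a single block on the minus strand from 15807377 to 15807649. Capitals mark the 4 of 273 positions at which the sequences differ, namely G158A, G167A, G231A and G233A from UQCRH to UQCRHL, counted from 1 at the first base of the start codon.
UQCRH: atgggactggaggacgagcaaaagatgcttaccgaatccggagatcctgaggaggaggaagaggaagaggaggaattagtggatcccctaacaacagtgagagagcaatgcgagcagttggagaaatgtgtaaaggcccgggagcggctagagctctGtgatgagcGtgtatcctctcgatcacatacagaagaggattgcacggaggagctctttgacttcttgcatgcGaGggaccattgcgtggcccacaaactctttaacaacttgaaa
UQCRHL: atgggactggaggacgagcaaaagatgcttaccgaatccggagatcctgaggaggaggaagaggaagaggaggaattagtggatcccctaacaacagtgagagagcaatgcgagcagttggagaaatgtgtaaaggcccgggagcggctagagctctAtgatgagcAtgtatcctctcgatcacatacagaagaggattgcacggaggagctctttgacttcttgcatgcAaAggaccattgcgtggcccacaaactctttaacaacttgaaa
Of the 224 windows of 50 bases in the UQCRH coding sequence, 122 occur unchanged in UQCRHL, so a 50-base read from such a window, taken alone, fits both genes. The mate of each read and the untranslated exons were not compared.

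UQCRHL was at 14, 12.8 and 14.8 CPM in vehicle and at 238.0, 131.6 and 166.7 CPM in E2 libraries, a log2 fold change of 3.69 (SE 0.211, adjusted p = 1.62e-09 by edgeR). UQCRH was at 89.6, 87.3 and 94.2 CPM in vehicle and at 100.8, 77.2 and 78.9 CPM in E2 libraries, which overlapped (log2 fold change -0.07, SE 0.172). The share of UQCRHL in the reads of the pair was 13.3 ± 0.436% in vehicle, 72.3 ± 0.757% in TNFα, 67.1 ± 3.72% in E2 and 73 ± 2.65% in E2+TNFα libraries (SD, n = 3 each). No vehicle library came near the share of any other library. Summed over the pair, levels were 104.2 ± 4.48 CPM in vehicle, 132.4 ± 15.8 in TNFα, 264.4 ± 67 in E2 and 170.5 ± 34.6 in E2+TNFα libraries. Whether a difference in how reads of both genes were assigned set these shares was not tested. The same division for ATP5MGL in the pair with ATP5MG was 0.359 ± 0.0591% in vehicle and 1.89 ± 0.0666% in E2 libraries, so ATP5MGL, with a log2 fold change of 3.71 (SE 0.244), held few of that pair's reads. ATP5MGL was at 0.726 to 0.971 RPKM in vehicle libraries, and it passed the filter only through the groups in which it was higher. The coding sequences of that pair differ at 18 of 300 aligned positions, and 19 of the 260 windows of ATP5MG occur in ATP5MGL.

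**Figure D2:**
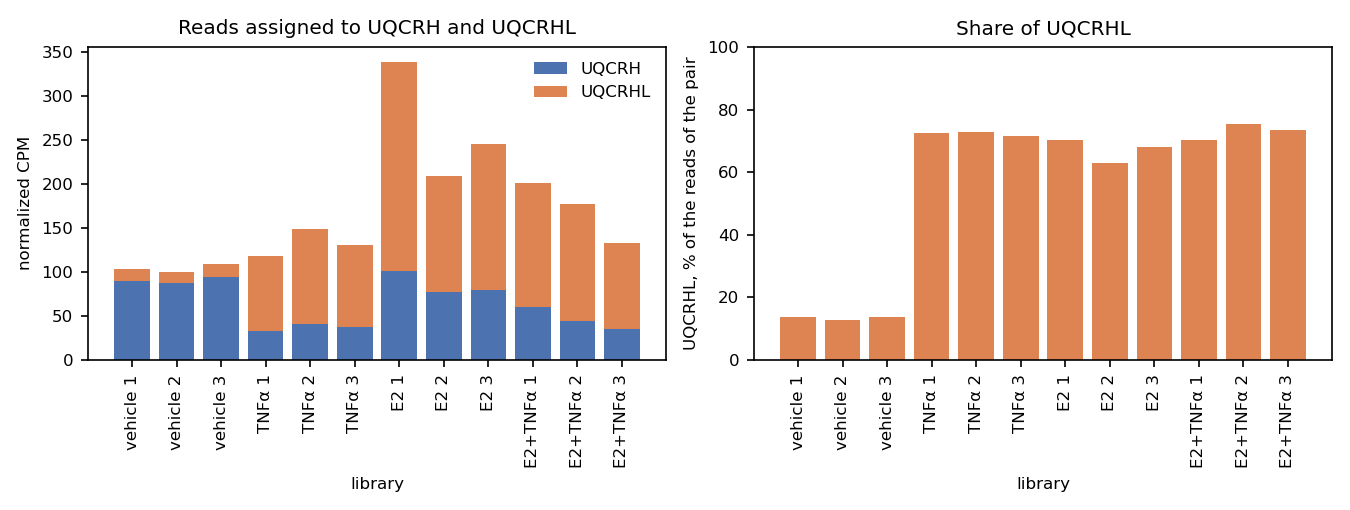
The left panel stacks the normalized CPM of UQCRH and UQCRHL in each of the 12 libraries, and the right panel gives UQCRHL as a percent of the reads of the pair. The 3 vehicle libraries have a mean share of 13.3% and the treated groups have means of 67.1% to 73%.

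Complex IV, cytochrome c oxidase, had 11 of 14 tested members higher and 1 lower with E2, and a median log2 fold change of 1.40. Of all genes 40.1% were higher and 41.7% lower. With the trends removed 13 members rose and 0 fell, beside 52.6% and 23.8% of all genes. COX8A (chromosome 11, 63974607 to 63976543) was at 233.8, 192.9 and 202.6 CPM in vehicle and at 799.3, 987.5 and 582.5 CPM in E2 libraries. COX5B, a zinc-binding subunit, was at 52.6, 39.3 and 44.2 CPM in vehicle and at 193.6, 187.4 and 138.3 CPM in E2 libraries. For both genes the lowest E2 library was far above the highest vehicle library, with log2 fold changes of 1.91 (SE 0.165) and 1.93 (SE 0.158), at adjusted p = 7.65e-08 and 4.48e-08 by edgeR. COX4I1, the main regulatory subunit, rose by 1.46 (SE 0.123), COX6A1 by 1.42 (SE 0.161) and NDUFA4, a subunit once counted with complex I, by 1.48 (SE 0.23). COX7A2L, which helps to join complexes III and IV into supercomplexes, rose by 1.81 (SE 0.14). COX7B2 rose by 2.52 (SE 0.389) from 1.31 to 1.34 CPM in vehicle libraries to 12.2, 3.19 and 6.51 CPM in E2 libraries. COX7A2 was the member that fell (log2 fold change -0.28, SE 0.146), and its sign turned to 2.50 with the GC and length trends removed, where NDUFA4 was at 3.06.

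Complex V had 13 of 19 members higher and 5 lower with E2, beside 40.1% and 41.7% of all genes. With the trends removed 13 rose and 2 fell, beside 52.6% and 23.8% of all genes. In the catalytic F1 head 4 of 5 subunits rose, among them ATP5F1B, which was at 633.9, 634.3 and 666.0 CPM in vehicle and at 1480.6, 1336.3 and 1331.7 CPM in E2 libraries. The groups were far apart for this abundant gene (log2 fold change 1.10, SE 0.105, adjusted p = 2.11e-07 by edgeR), and ATP5F1A, the α subunit, rose by 0.43 (SE 0.147). ATP5F1D, the δ subunit, rose by 1.67 (SE 0.226), or by 0.44 with the trends removed. The 3 genes of the c-ring, the proton-driven rotor (ATP5MC1, ATP5MC2 and ATP5MC3), rose by 0.49, 0.78 and 1.45, of which ATP5MC1 and ATP5MC2 had values of -0.08 and -0.20 with the unwanted factor. ATP5MC2 was not called (0.19) and ATP5MC3 was at 3.54 with the trends removed. ATP5IF1, which inhibits the enzyme when it runs in reverse, rose by 1.05 (SE 0.118).

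Falls in complex V lay among the stalk and membrane subunits. Of the 4 stalk genes, which hold the head in place, ATP5PB, ATP5PD and ATP5PO fell by 0.71, 0.33 and 0.73 on the log2 scale, and ATP5PF rose by 1.38. With the GC and length trends removed none of the 3 falls was called (-0.04, 0.12 and -0.02), and ATP5PF was at 0.90. ATP5ME, a subunit that helps to join ATP synthase dimers (chromosome 4, 672436 to 674338), was at 26.1, 22.1 and 24 CPM in vehicle and at 7.94, 5.58 and 5.06 CPM in E2 libraries. ATP5MD, another small membrane subunit, was at 81.7, 75.9 and 80.8 CPM in vehicle and at 32.6, 22.8 and 23.2 CPM in E2 libraries. Both fell without overlap, by 1.94 (SE 0.25) and 1.59 (SE 0.155) on the log2 scale, and both falls were also called with the trends removed (-2.24 and -0.91).

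The second question was how the inflammatory cytokine TNFα changed these genes, and this comparison uses the same vehicle libraries. Of the 91 members, 47 rose, 20 fell and 24 were not called, against 40.3% of all genes higher and 41.6% lower. With library size as the only normalization, 39 rose and 26 fell (34.0% and 46.5% of all genes), and the falls numbered 4 with the unwanted factor (17.1% of all genes) and 13 with the trends removed (27.1%). The median log2 fold change of the members was 0.33 and that of all genes 0.01, and in those fits the members' median was 0.13, 0.68 and 0.60. Past the full thresholds were 5 members higher and 6 lower, against 6.64% and 20.0% of all genes. With the trends removed 13 members were higher and 2 lower past them, beside 737 and 505 of the 11303 genes. By complex the rises and falls were 23 and 8 of 45 in complex I, 1 and 1 of 4 in complex II, 6 and 3 of 9 in complex III, 7 and 2 of 14 in complex IV, and 10 and 6 of 19 in complex V. With the trends removed they were 30 and 6, 1 and 1, 6 and 2, 12 and 0, and 13 and 4 in the same order. All genes then had 46.4% higher and 27.1% lower, and the median of complex IV was 1.04 in place of 0.50.

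NDUFB10 was again among the largest rises of complex I, at 85.9, 93.2 and 84.7 CPM in TNFα libraries (log2 fold change 1.76, SE 0.153), with NDUFB7, another membrane arm subunit, at 1.51 (SE 0.167). The largest falls were those of NDUFA5 at -2.41 (SE 0.532) and NDUFS4, an accessory subunit at the NADH end, at -2.15 (SE 0.443), and both signs turned with the unwanted factor (1.34 and 0.71). NDUFA5 was at 0.334 to 0.436 RPKM in TNFα libraries and passed the filter only through the vehicle libraries. NDUFB7 was at 0.93 and NDUFS4 at -1.02 with the trends removed. NDUFS4 was at 38.7, 36.3 and 40.8 CPM in vehicle and at 6.82, 15.1 and 3.9 CPM in TNFα libraries, a fall in each library of uneven size. In complex II, SDHD fell by 1.59 on the log2 scale (SE 0.324; 0.78 with the unwanted factor), and SDHC rose by 0.34 (SE 0.148, adjusted p = 0.0468 by edgeR). They were at -0.34 and 1.39 with the trends removed.

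In complex III, UQCRHL rose by 2.79 (SE 0.203), UQCRQ by 1.46 (SE 0.145) and UQCRFS1 by 0.95 (SE 0.103), while UQCRH fell by 1.30 (SE 0.174) on the log2 scale (-0.46 with the trends removed). UQCRC2 was at 26.3, 28.4 and 20.3 CPM in TNFα libraries, well under vehicle and 2.83-fold lower (adjusted p = 8.37e-07 by edgeR). In complex IV, COX8A was at 578.0, 557.6 and 582.8 CPM and rose by 1.45 (SE 0.163), and COX5B by 1.42 (SE 0.155). COX7A2 and COX6C, both small nuclear subunits, fell by 1.16 (SE 0.147) and 0.79 (SE 0.246) on the log2 scale, and both signs turned positive with the GC and length trends removed (1.48 and 0.42). In complex V, ATP5ME was at 3.98, 3.46 and 2.86 CPM, a fall of 2.80 (SE 0.251), and ATP5MD fell by 2.40 (SE 0.157) on the log2 scale. ATP5MGL, which was at 0.726 to 0.971 RPKM in vehicle libraries, rose by 2.51 (SE 0.237) and ATP5F1D by 1.54 (SE 0.224). ATP5F1D was not called (0.14) and ATP5MD was at -1.54 with the trends removed.

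With E2+TNFα relative to vehicle, 57 members rose and 18 fell, against 39.1% and 41.5% of all genes, at a median log2 fold change of 0.58 (all genes -0.03). The members past the full thresholds were 9 higher and 5 lower (7.52% and 17.6% of all genes, 25.1% together), and they numbered 9 in all without E2+TNFα replicate 3. With the GC and length trends removed 16 were higher and 1 lower, beside 941 and 392 of the 11303 genes. With library size as the only normalization 45 rose and 24 fell (31.2% and 48.4% of all genes), at a median of 0.34, and with the unwanted factor 5 fell (19.7% of all genes), at a median of 0.78. The largest called rises were those of NDUFAF8 at 1.90 and NDUFB7 at 1.86 in complex I, UQCRHL at 3.16 and UQCRQ at 1.66 in complex III, COX7B2 at 2.50 and COX5B at 1.61 in complex IV, and ATP5MGL at 3.18 and ATP5F1D at 1.53 in complex V. The largest called falls were those of NDUFA5 at -1.51, NDUFS4 at -1.49, SDHD at -1.65, UQCRC2 at -1.55, UQCRH at -0.97, COX7A2 at -0.46, ATP5ME at -2.11 and ATP5MD at -1.97, of which NDUFA5 and COX7A2 were positive with the trends removed (0.57 and 1.91) and NDUFS4 and SDHD with the unwanted factor (1.07 and 0.49). SDHC rose by 0.50. NDUFA5 passed the filter only through the vehicle libraries, and ATP5MGL only through the other groups. With the trends removed ATP5F1D was at 0.31, SDHC at 1.51, NDUFS4 at -0.67, SDHD at -0.61, UQCRH at -0.29 and ATP5MD at -1.24.

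**Figure D3:**
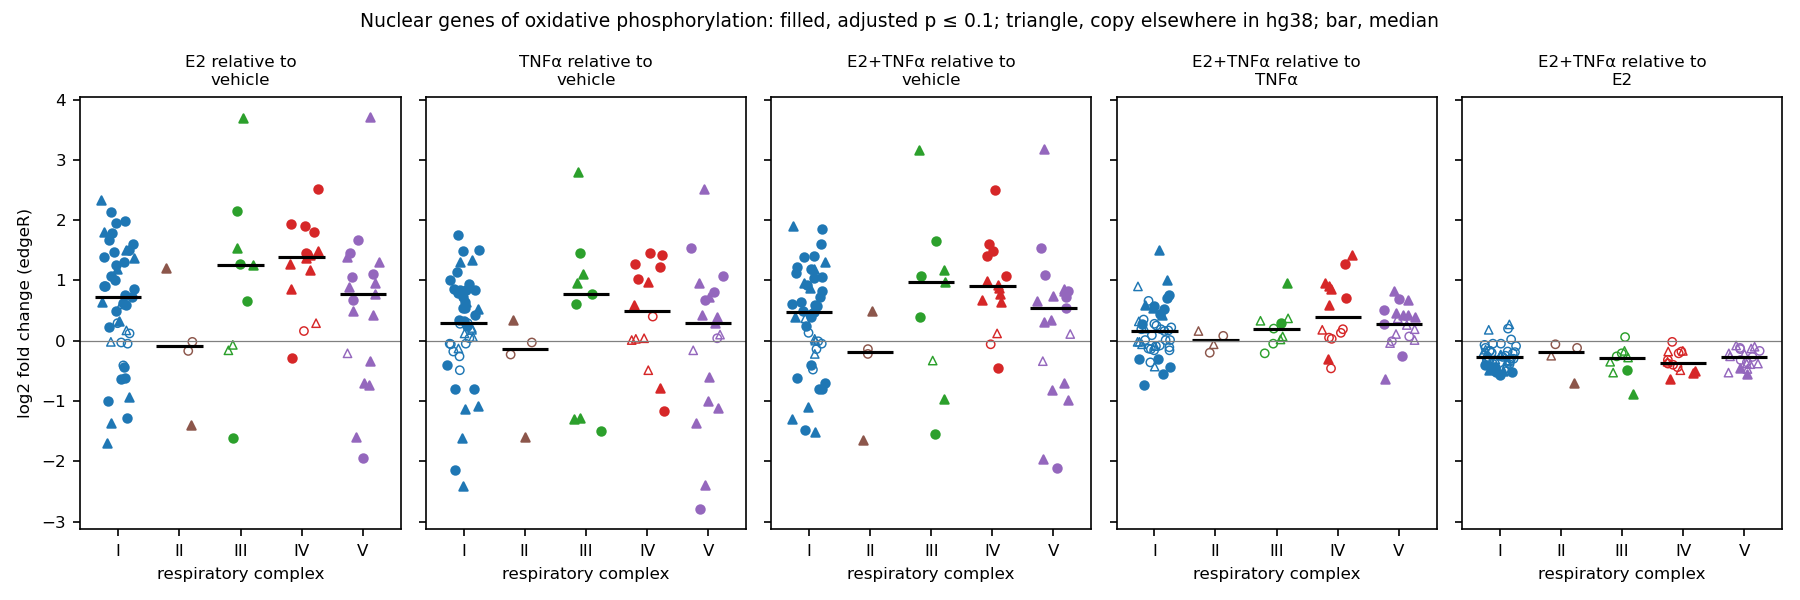
Each point is 1 tested member, with the log2 fold change (edgeR) on the vertical axis, the complex on the horizontal axis and 1 panel for each comparison. Filled points have an adjusted p of at most 0.1, triangles are members with a copy elsewhere in hg38 and bars are medians, which for complex IV are 1.40 with E2 and 0.50 with TNFα relative to vehicle.

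The change with E2 in the presence of TNFα does not use the vehicle libraries. Relative to TNFα alone, 29 members rose with E2+TNFα, 8 fell and 54 were not called, against 24.4% of all genes higher and 21.0% lower. The share of members that rose was thus 31.9%, and after removal of the trends it was 30.8% (28 members), beside 30.3% of all genes. In that fit 8 members fell, against 24.4% of all genes. The median log2 fold change of the members was 0.19 and that of all genes 0.04. None of the members was past the full thresholds, whereas 5.56% of all genes were, and edgeR gave 3 such members without TNFα replicate 2 and 2 without E2+TNFα replicate 3. At an unadjusted p under 0.05, 30 members were higher and 8 lower (24.9% and 21.4% of all genes), and DESeq2 called 27 higher and 8 lower by its adjusted p (24.0% and 23.9% of all genes). The count of 8 falls was 5 without TNFα replicate 1, 4 without TNFα replicate 3, 5 without E2+TNFα replicate 1 and 4 without E2+TNFα replicate 2, where 16.8% to 17.5% of all genes fell.

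In complex I, 11 of 45 members rose (24.4%, the same share as of all genes) and 5 fell (11.1%, against 21.0%), and 10 of the rises were among the 30 accessory subunits. NDUFB3 (chromosome 2, 201071739 to 201085750), an accessory subunit of the membrane arm of complex I, was at 8.33, 14.9 and 10.3 CPM in TNFα and at 32.5, 45.1 and 17.5 CPM in E2+TNFα libraries. The groups did not overlap, but the lowest E2+TNFα library was close to the highest TNFα library (2.83-fold higher, just under the size threshold, SE 0.369 on the log2 scale, adjusted p = 0.00513 by edgeR). NDUFB1, also of the membrane arm, was at 13.6, 18.2 and 15.7 CPM and at 35.9, 32 and 28.3 CPM, a clear separation (log2 fold change 1.01, SE 0.145, adjusted p = 5.78e-05 by edgeR). In complex IV, 7 of 14 members rose and 1 fell. COX7B, a small subunit (chromosome X, 77899464 to 77905384), was at 29.4, 51.4 and 39.5 CPM in TNFα and at 136.3, 131.7 and 54.8 CPM in E2+TNFα libraries, where the third was near the TNFα range (log2 fold change 1.42, SE 0.362). NDUFA4 rose by 0.96 (SE 0.228), COX7A2 by 0.70 (SE 0.146) and COX7B2 by 1.28 (SE 0.365). With the GC and length trends removed COX7A2 was not called (0.44), and COX7B was at 0.76 and NDUFB1 at 0.66.

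In complex V all 5 small membrane subunits (ATP5MD, ATP5ME, ATP5MF, ATP5MG and ATP5MPL) rose relative to TNFα, by 0.43 to 0.69. ATP5F1E, the ε subunit, rose by 0.82 (SE 0.176) and ATP5MGL by 0.67 (SE 0.212). ATP5ME was the one of these whose groups overlapped. With the trends removed ATP5MG (0.20), ATP5MGL (0.43) and, among the falls, ATP5F1B (-0.16) were not called, and ATP5F1E was at 0.42. ATP5MC2 of the c-ring was at 143.8, 130.2 and 157.2 CPM in TNFα and at 95.1, 78.5 and 102.4 CPM in E2+TNFα libraries, without overlap (log2 fold change -0.64, SE 0.152, adjusted p = 0.00382 by edgeR). ATP5F1B fell by 0.25 (SE 0.104), and in complex I NDUFA12 fell by 0.73 (SE 0.15; -1.16 with the trends removed), NDUFAF6 by 0.55 (SE 0.206) and NDUFV1 by 0.43 (SE 0.15) on the log2 scale. In complex III UQCR11 rose by 0.29 (SE 0.124), and none of the 4 complex II genes was called (at an unadjusted p under 0.05 none was either, and their log2 fold changes lay between -0.20 and 0.16).

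**Figure D4:**
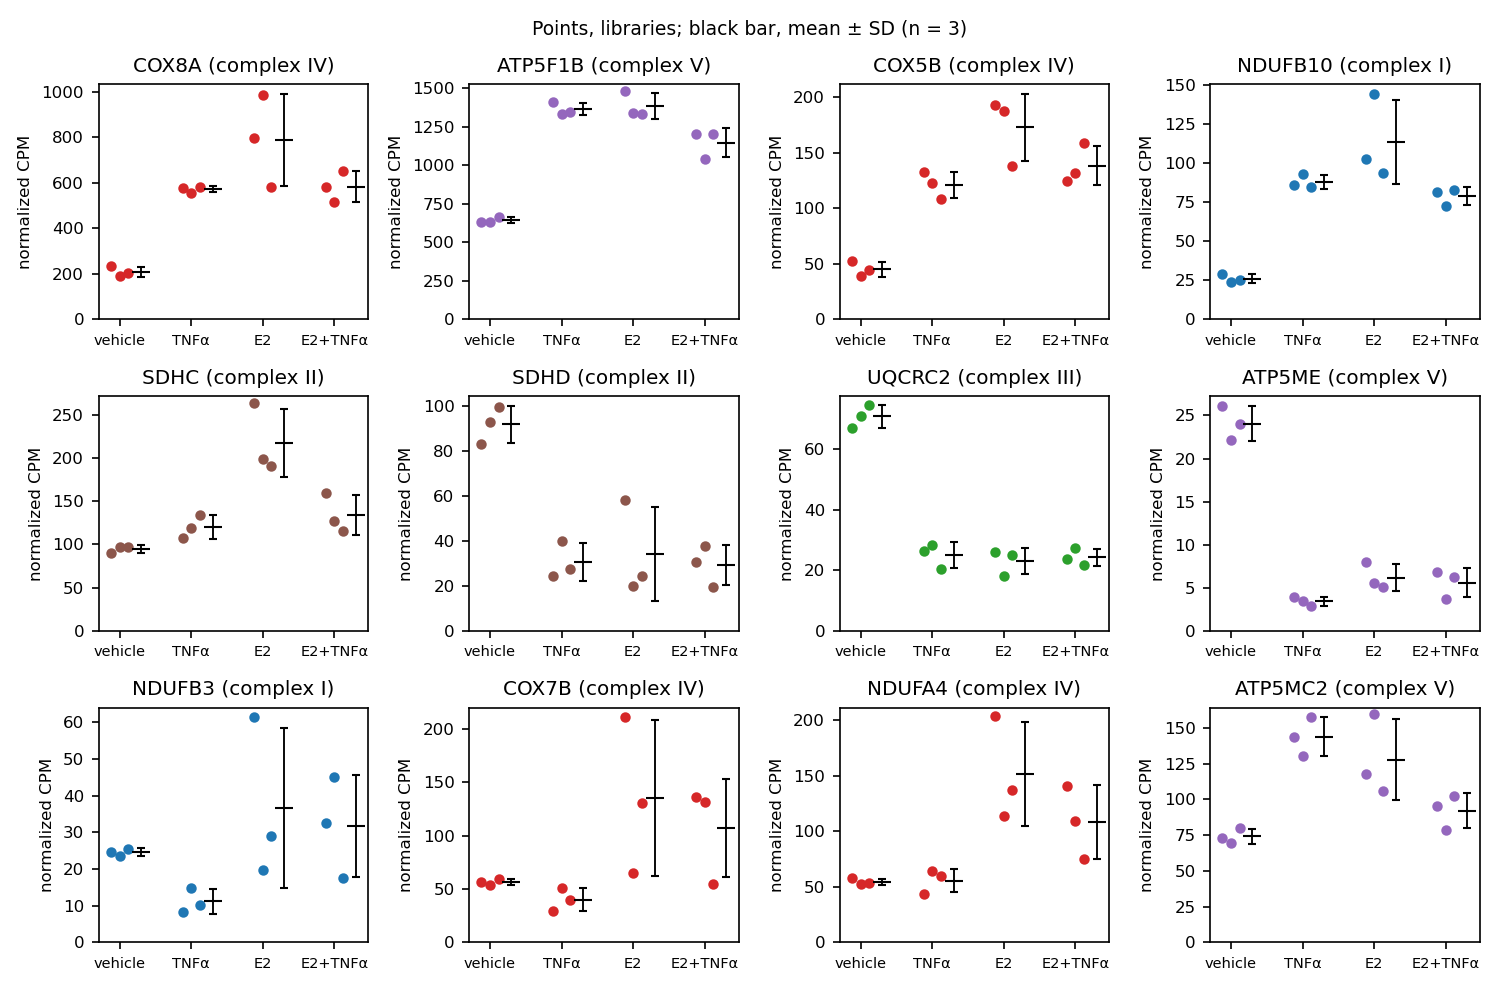
Each panel plots the normalized CPM of 1 member in the 12 libraries by group, with the mean and SD (n = 3) beside the points, for 12 members picked after their values were seen. COX8A is at 192.9 to 233.8 CPM in vehicle and 582.5 to 987.5 CPM in E2 libraries, whereas SDHD is at 82.9 to 99.4 and 19.8 to 58 CPM.

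The last pairwise comparison asked what TNFα changed in cells that had received E2. Relative to E2, 16 members fell with E2+TNFα, none rose and 75 were not called, against 3.34% of all genes lower and 2.65% higher. At an unadjusted p under 0.05 none was higher and 42 were lower by edgeR (8.91% and 10.5% of all genes), and DESeq2 called none higher and 34 lower (4.54% and 7.38%). The median log2 fold change was -0.28 (all genes 0.01). The count of falls depended on single libraries, at 1 without E2 replicate 1 (0.434% of all genes), 1 without E2+TNFα replicate 2 (0.142%) and 41 without E2 replicate 3 (8.25%). It was also 4 with library size as the only normalization (1.37% of all genes), 0 in a fit of these groups alone (0.106%), 41 with the unwanted factor (7.17%), and 28 with the trends removed (10.9%), where 2.48% of all genes and no members rose.

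Of the 16, 8 were in complex I, 1 in complex II, 2 in complex III, 3 in complex IV and 2 in complex V. UQCRH had the largest fall, from 100.8, 77.2 and 78.9 CPM in E2 to 60.3, 43.7 and 35.1 CPM in E2+TNFα libraries (log2 fold change -0.89, SE 0.175, adjusted p = 0.0185 by edgeR). SDHC was at 262.9, 198.6 and 191.2 CPM and at 159.4, 127.0 and 115.1 CPM, again without overlap (log2 fold change -0.70, SE 0.149, adjusted p = 0.0257 by edgeR). COX6A1 fell by 0.64 (SE 0.159), NDUFA2 by 0.57 (SE 0.128), ATP5PF by 0.56 (SE 0.139), COX6B1 by 0.54 (SE 0.124), NDUFB10 by 0.52 (SE 0.15) and ATP5MG by 0.45 (SE 0.13) on the log2 scale. UQCRH, SDHC, COX6A1, COX6B1, ATP5PF and ATP5MG have copies elsewhere in the genome, and 7 of the 16 falls were in members without one.

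The difference between the change with E2 in the presence and in the absence of TNFα was tested as an interaction. It was negative for 52 members and positive for 15, against 37.6% and 39.0% of all genes, with a median of -0.58 on the log2 scale (all genes -0.01). With the GC and length trends removed, 65 were negative and 6 positive (46.0% and 21.3% of all genes). A negative value means that the change with E2 was lower when TNFα was present. Past the full thresholds were 13 negative and 5 positive interactions, against 9.29% and 22.5% of all genes. With the trends removed 23 were negative and 1 positive past them, beside 1077 and 585 of the 11303 genes. This test uses the vehicle libraries, and each value is part of the difference between vehicle and the other groups.

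The size of the change went with base composition, relative to vehicle and, with the opposite sign, in the comparisons without it. Over the 91 members, the Spearman correlation of log2 fold change with exon GC content was 0.36 for E2 and 0.52 for TNFα (across genes, which are not independent replicates), and over all genes it was 0.66 and 0.71. The 46 members with the higher GC content had a median log2 fold change with E2 of 1.14, with 40 higher and 2 lower, and the 45 with the lower content had a median of 0.17, with 20 higher and 14 lower. For E2+TNFα relative to TNFα the correlation over members was -0.32 with GC content (all genes -0.21) and -0.35 with length. In that comparison 10 of the 46 members with the higher GC content rose (21.7%) and 19 of the 45 with the lower (42.2%), or 15 (32.6%) and 13 (28.9%) with the trends removed. For E2+TNFα relative to E2 the correlation over members was -0.21 with GC content (all genes -0.33) and 0.29 with length. Members were close to other genes in GC content, with a median of 49.0% (all genes 49.9%), but shorter, with a median exon length of 1059 bases (all genes 3594). With each library's trends with GC content and length removed, the correlation with GC content over members was -0.26 for E2 and -0.26 for TNFα. The medians with E2 were then 1.04 for members and 0.35 for all genes. In that fit 68 members rose and 8 fell with E2 (52.6% and 23.8% of all genes), and 62 rose and 13 fell with TNFα (46.4% and 27.1%). Of the 60 rises with E2, 56 were still called in the same direction, while of the 16 falls 6 were, and 3 were called in the other direction. UQCRC2, ATP5ME and ATP5MD were among the falls called in both (-1.10, -2.24 and -0.91).

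**Figure D5:**
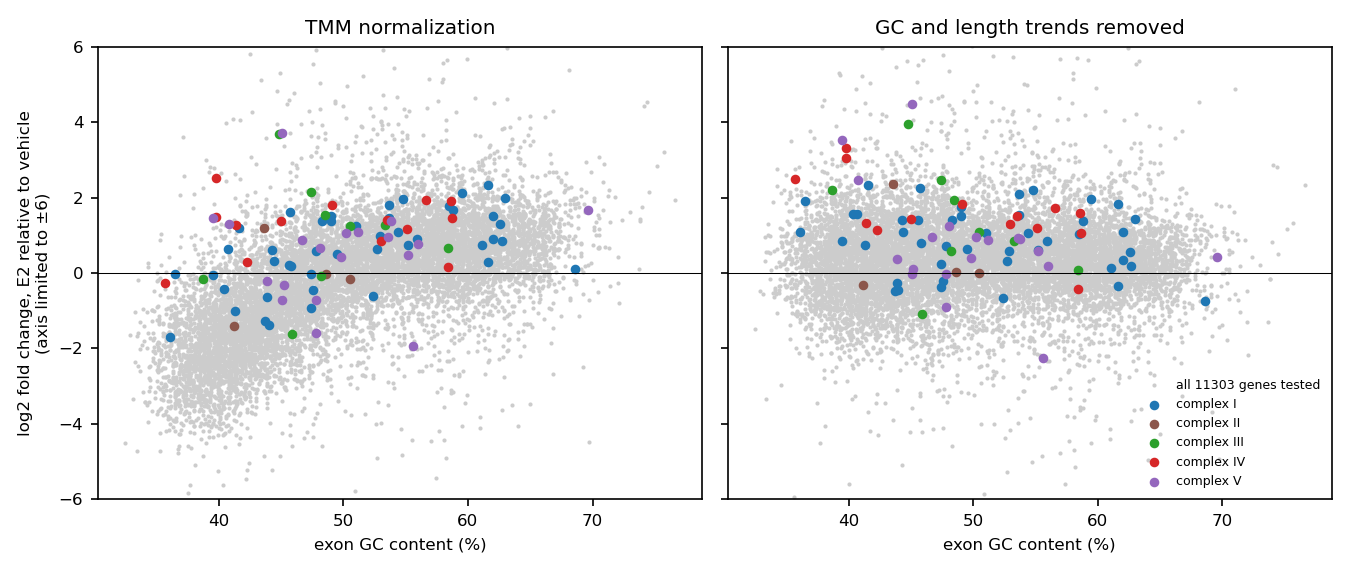
Log2 fold change of E2 relative to vehicle is plotted against exon GC content for all 11303 genes (grey) and the members (coloured by complex), with standard normalization at the left and with each library's GC and length trends removed at the right. The Spearman correlation over all genes is 0.66 at the left and 0.03 at the right, and the members have medians of 0.85 and 1.04.

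Copies elsewhere in the genome, mostly without introns, were found for 40 of the 92 members. Their median log2 fold change was 0.81 with E2 relative to vehicle, and that of the 51 tested members without a copy was 0.91. With TNFα relative to vehicle the medians were 0.08 and 0.55 (0.46 and 0.61 with the trends removed). With E2+TNFα relative to TNFα they were 0.35 and 0.08 (0.17 and 0.08 with the trends removed). In the last comparison 17 of the 40 members with a copy rose (42.5%) and 12 of the 51 without one (23.5%), beside 24.4% of all genes. After removal of the trends 13 (32.5%) and 15 (29.4%) did, beside 30.3%. The part of reads from copies in these differences was not tested.

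Other genes of the pathway were counted from lists that hold none of the members. Cytochrome c1, encoded by CYC1, is the electron-donating subunit of complex III. It was at 215.3, 198.0 and 196.2 CPM in vehicle and at 634.5, 738.1 and 484.3 CPM in E2 libraries, without overlap (log2 fold change 1.61, SE 0.138, adjusted p = 7.24e-08 by edgeR). With TNFα it rose by 1.70 (SE 0.138), and relative to TNFα it fell by 0.40 (SE 0.134) on the log2 scale with E2+TNFα (-0.26 with the trends removed). The carrier itself, CYCS, was not called with E2 (-0.36, SE 0.247) and fell by 0.76 (SE 0.246) on the log2 scale with TNFα. With the trends removed CYC1 rose by 0.76 with E2 and by 0.86 with TNFα, and CYCS was called higher with both (1.57 and 0.91). All 13 mitochondrially encoded respiratory genes rose with E2, at a median of 1.38. MT-CO1, the catalytic core of complex IV, was at 6787.3, 7498.8 and 6789.4 CPM in vehicle and at 12608.0, 24143.3 and 17969.1 CPM in E2 libraries, with the highest value in the E2 library of the lowest depth. With TNFα 12 of the 13 rose (92.3%, against 40.3% of all genes) at a median of 1.00, or 1.85 with the trends removed. Relative to TNFα 1 rose (7.69%) and 3 fell (23.1%) with E2+TNFα, against 24.4% and 21.0% of all genes, and with the trends removed the rise was not called and 5 fell.

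The counts that follow stand beside 40.1% of all genes higher and 41.7% lower with E2. Of 44 assembly factors outside the naming rule, 25 rose (56.8%) and 8 fell (18.2%) with E2 (median 0.50), among them SDHAF1, for complex II, at 2.09 (SE 0.164), and COX17, a copper chaperone for complex IV, at 1.45 (SE 0.178). Of 78 genes for mitochondrial ribosomal proteins, 50 rose (64.1%) and 14 fell (17.9%, median 0.83). The 90 tested genes for cytosolic ribosomal proteins gave 33 rises (36.7%) and 35 falls (38.9%, median 0.02). Of 19 citric acid cycle genes 6 rose (31.6%) and 8 fell (42.1%), with citrate synthase (CS) at 0.92 (SE 0.137). Among 18 genes for mitochondrial biogenesis and transcription, 2 rose (11.1%) and 10 fell (55.6%), at a median of -0.56. After removal of the trends, which gave 52.6% of all genes higher and 23.8% lower, the rises and falls were 34 and 3 for assembly factors, 59 and 6 for mitochondrial ribosomal genes, 43 and 31 for cytosolic ones, 8 and 4 for the citric acid cycle and 4 and 6 for biogenesis (median -0.04). ESRRA, the nuclear receptor ERRα, was at 78.7, 65.5 and 70.2 CPM in vehicle and at 182.1, 210.4 and 151.2 CPM in E2 libraries (log2 fold change 1.34, SE 0.165). TFAM, which packages and transcribes mitochondrial DNA, was at 40.2, 53.3 and 49.7 CPM and at 11.3, 4.78 and 9.13 CPM (log2 fold change -2.46, SE 0.319). No E2 library reached the lowest vehicle library for TFAM. GABPA, a subunit of the ETS factor GABP, fell by 2.81 (SE 0.39), LRPPRC, which stabilizes mitochondrial transcripts, by 3.46 (SE 0.24) on the log2 scale, and NRF1 rose by 0.45 (SE 0.16). With the trends removed neither GABPA (-0.21) nor TFAM (0.07) was called, LRPPRC was at -1.33, ESRRA at 0.82 and SDHAF1 at 1.13. The genes of these lists that are named here, apart from CYC1, were picked after their values were seen. With TNFα relative to vehicle, 23 of the 44 assembly factors rose and 11 fell, 50 of the 78 mitochondrial ribosomal genes rose and 18 fell, and 24 of the 90 cytosolic ribosomal genes rose and 48 fell, against 40.3% of all genes higher and 41.6% lower. Of the citric acid cycle genes 6 rose and 9 fell, as did 6 and 9 of those for biogenesis. With the trends removed the 5 lists had 32 and 5, 59 and 9, 24 and 43, 7 and 5, and 8 and 6 in this order. Of all genes 46.4% then rose and 27.1% fell.

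NRF1 and GABP are known to bind promoters of nuclear respiratory genes, so the promoters were searched for their motifs. RefSeq promoters of GRCh38.p14 (250 bases before to 50 after the start) were found for 75 of the 92 members. The NRF1 core GCATGCGC on either strand occurred in 15 of them (20%) and in 3.27% of all 27305 promoters. The ETS motif CCGGAAG occurred in 21 (28%) and in 10.7% of all promoters, and the YY1 motif AAGATGGC in 11 (14.7%) and in 3.03%. None held the full palindromic consensus estrogen response element, which occurred in 0.0659% of all promoters. An element this rare would seldom be found in any 75 promoters, so its absence tells little. The study placed most ERβ binding sites far from transcription starts, outside the windows searched. A match is a description of the sequence only. The ETS motif ends in the letters with which the YY1 motif begins, and the NRF1 core can overlap itself when both strands are read, so matches can share bases. The stretches from 200 bases before to 20 bases into the gene are shown for COX5B and SDHD because both hold the NRF1 core and the ETS motif. They are counted from the RefSeq start, which for both genes lies downstream of the start in the deposited counts. COX5B is at chr2:97645862-97646081 and SDHD at chr11:112086673-112086892, both on the plus strand, and capitals mark the motifs, on either strand. The capitals in SDHD hold overlapping matches of the NRF1 core on both strands.
COX5B: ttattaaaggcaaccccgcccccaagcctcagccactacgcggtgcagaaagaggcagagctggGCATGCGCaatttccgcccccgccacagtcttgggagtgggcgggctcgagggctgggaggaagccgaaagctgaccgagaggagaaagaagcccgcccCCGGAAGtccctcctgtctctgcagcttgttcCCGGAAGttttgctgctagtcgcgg
SDHD: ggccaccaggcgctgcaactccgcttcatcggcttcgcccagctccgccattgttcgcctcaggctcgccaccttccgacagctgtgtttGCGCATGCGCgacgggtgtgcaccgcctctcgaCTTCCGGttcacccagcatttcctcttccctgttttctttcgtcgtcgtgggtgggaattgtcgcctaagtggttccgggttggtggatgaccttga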

How the data were processed

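The authors prepared stranded mRNA libraries, sequenced 50-base paired-end reads, mapped them to hg38 (TopHat2 2.1.0 in the submitters' processing notes) and counted them per gene (featureCounts). What was deposited are raw counts, without the batch correction the study describes. How reads that fit several genes were counted, and the strand setting, are not given in the sources used here. From 12567 lines, 46 exact repeats were dropped, as were 70 symbols that shared both position and counts with another.

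Counts were tested with edgeR 4.0.16 in R 4.3.3 (quasi-likelihood F test, TMM, 4 group means in one fit, SE as the absolute log2 fold change over the square root of F), on 11303 genes that reached an RPKM of 1 in 3 or more libraries. Copies were sought by aligning exons to hg38 with minimap2 2.31 (at least 200 matched bases, at an identity of at least 90% without introns or 95% with introns). Trends with GC content and length were loess curves (span 0.3) used as offsets. In each comparison and complex, the text names the 2 largest rises and the 2 largest falls among called members without overlap between the groups, with a fixed list of core members. The members, lists and alternatives were chosen with earlier results of these data known. Replicates are dishes plated in triplicate, so p-values measure the spread between dishes of one line. Depth was 7.65 to 39.9 M reads per library, and its part in the SEs was not tested.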

Additional observations from a re-analysis of the deposited data

Results flagged for a closer look

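The interaction of E2 and TNFα was singled out because the change with E2 differed between cells with and without TNFα, by a test of the difference itself (edgeR quasi-likelihood, n = 3 libraries in each of 4 groups). It was called positive for 15 members and negative for 52 at an adjusted p of at most 0.1, against 39.0% and 37.6% of all genes. The largest negative and the largest positive called interaction of each complex, a choice made after the values were seen, were NDUFB10 at -2.28 (log2) and NDUFA5 at 2.59 in complex I, SDHC at -1.04 and SDHD at 1.34 in complex II, UQCRHL at -3.32 and UQCRC2 at 1.56 in complex III, COX8A at -1.88 and COX7A2 at 0.98 in complex IV, and ATP5MGL at -3.04 and ATP5ME at 2.63 in complex V. All of these values use the vehicle libraries, without which NDUFA5 would not have passed the filter, whereas ATP5MGL passed it only through the other groups. With each library's trends with GC content and length removed, the signs of COX7A2 (-2.07) and NDUFA5 (-0.75) turned, and SDHD was at 0.05. With the factor of unwanted variation NDUFA5 and SDHD turned negative. In that fit 2 members were positive and 49 negative, against 16.4% and 15.3% of all genes.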

How the results depend on the processing

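The vehicle libraries stood apart and the libraries of each batch are not named, so comparisons with vehicle cannot separate a batch from the treatment. What depth limits was not tested, and the SE of a member did not follow its level alone, at 0.382 for UQCRB and 0.188 for NDUFAF8 with E2, whose vehicle means were 99.1 and 4.57 CPM. In all alternatives run, the median of the members kept its sign, whereas counts of falls moved. Library size as the only normalization gave medians (log2) of 0.49 for E2, 0.13 for TNFα and 0.34 for E2+TNFα relative to vehicle (all genes -0.38, -0.19 and -0.26), -0.25 for the interaction, and 4 falls for E2+TNFα relative to E2 (1.37% of all genes). The factor of unwanted variation from 20 housekeeping genes gave 3, 4 and 5 falls and medians of 1.12, 0.68 and 0.78 for E2, TNFα and their combination, 41 falls relative to E2 (7.17% of all genes), and 2 positive interactions (16.4%) with a median of -1.04. Removal of GC and length trends gave 8 falls and a median of 1.04 for E2, 13 and 0.60 for TNFα, a median of 0.74 for E2+TNFα, 28 falls relative to E2 (10.9% of all genes), and 6 positive interactions (21.3%) with a median of -0.81. Leaving out members with a copy, which tests fewer members, gave 35 rises, 8 falls and 15 past the full thresholds for E2, 31, 7 and 5 with a median of 0.55 for TNFα, 34, 9 and 8 for E2+TNFα, 12 rises relative to TNFα (23.5% of 51 members, beside 24.4% of all genes), 7 falls relative to E2, and 6 positive and 31 negative interactions with a median of -0.91. With at least 10 counts in every library, 1 member was past the full thresholds relative to TNFα. Falls relative to E2 numbered 34 with DESeq2 (7.38% of all genes) and 0 in a fit of those groups alone (0.106%), and were 42 at an unadjusted p under 0.05 in the fit of all groups (10.5%). The cause of these moves was not tested.

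The labels number the dishes alike in each group. Deviations of same-numbered libraries correlated at -0.522 to 0.504, and no pair of groups had all 3 correlations above 0.1. Libraries of different numbers were not compared in this way. Whether a number marks dishes handled together therefore cannot be told from these correlations. A replicate block gave 5 falls relative to TNFα and 4 relative to E2 (18.9% and 0.858% of all genes). Together with removal of the trends, the replicate block gave 9 falls for E2, 13 and a median of 0.60 for TNFα, 11 and 0.73 for E2+TNFα relative to vehicle, and 6 positive interactions with a median of -0.81.

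Each library of the groups compared was also left out in turn. For E2 relative to vehicle this gave 55 to 62 rises, 13 to 19 falls and 20 to 26 past the full thresholds. The ranges were 43 to 45, 19 to 20 and 9 to 15 for TNFα, and 50 to 56, 18 to 21 and 9 to 17 for E2+TNFα. Leaving out a library of another group gave up to 49 rises and 22 falls for TNFα, and up to 57 rises for E2+TNFα. Single libraries left out gave 22 to 34 rises, 4 to 11 falls and 0 to 3 past the thresholds relative to TNFα. Falls relative to E2 numbered 1 to 41. The interaction, which uses all libraries, was positive for 12 to 20 members and negative for 47 to 55.

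Of 2673 values for named members under the alternatives, 51 changed sign with a call on either side. For E2 relative to vehicle, the unwanted factor gave -0.08 for ATP5MC1, -0.20 for ATP5MC2, 2.06 for NDUFA5, 1.66 for NDUFAF7, 0.11 for NDUFS1, -0.10 for NDUFV1 and 1.04 for SDHD. Removal of the trends, without and with the replicate block, gave 2.50 and 2.53 for COX7A2, 1.09 and 0.96 for NDUFA5, 0.76 and 0.75 for NDUFS1, and 0.59 and 0.59 for UQCRH. For TNFα, the unwanted factor gave 0.95 for COX6C, 1.34 for NDUFA5, 0.24 for NDUFS1, 0.71 for NDUFS4 and 0.78 for SDHD, and trend removal without and with the block gave 0.42 and 0.42 for COX6C, 1.48 and 1.49 for COX7A2, 0.23 and 0.18 for NDUFA5, and 0.83 and 0.84 for NDUFS1. For E2+TNFα relative to vehicle, the unwanted factor gave -0.51 for ATP5MC2, 1.67 for NDUFA5, 0.15 for NDUFS1, 1.07 for NDUFS4, -0.14 for NDUFV1, 0.49 for SDHD and -0.02 for UQCRC1, and trend removal without and with the block gave -0.10 and -0.10 for ATP5MC2, 1.91 and 1.90 for COX7A2, 0.57 and 0.49 for NDUFA5, 0.74 and 0.73 for NDUFS1, and -0.04 and -0.04 for UQCRC1. For the interaction, the unwanted factor gave -1.74 for NDUFA5 and -1.33 for SDHD, and trend removal without and with the block gave -2.07 and -2.12 for COX7A2 and -0.75 and -0.65 for NDUFA5.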
